A study of Mus musculus with 6 samples.

Results

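The constitutive proteasome is the protein machine that removes ubiquitin-tagged proteins from the cell, and the 31 genes that encode its subunits were followed here in mouse LT-HSC, the long-term haematopoietic stem cells of the bone marrow. The members were picked by name from the deposited table, which also lists 23967 other genes, and the inducible immunoproteasome subunits were left out. They fall into 7 alpha-ring genes (Psma1 to Psma7), 7 beta-ring genes (Psmb1 to Psmb7), 6 ATPase genes (Psmc1 to Psmc6) and 11 non-ATPase genes (Psmd1 to Psmd4, Psmd6 to Psmd8 and Psmd11 to Psmd14). All 31 passed the filter on low values described below. RNA was sequenced from 3 libraries of mice homozygous for the ENU-induced Itpkb allele Ms T-less (genotype spelled IPTKB-/- in the labels, Itpkb-/- here) and from 3 libraries of WT litter mate controls, all on the C57BL/6 background. Itpkb encodes a kinase that phosphorylates inositol trisphosphate. Each library was a separate pool of 4 age-matched mice, whose age the labels do not give, with at least 10000 cells sorted as LSK CD34-CD150+CD48-Flk2-. Every cell of the Itpkb-/- mice carries the allele, so effects within the stem cell and effects of its surroundings cannot be told apart.

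The recovered depth was 4024203 to 7470329 reads per library, values are normalized CPM (sequencing counts scaled for library size and divided by an edgeR library factor), and 3 reads were worth 0.393 to 0.746 of this unit. Values are listed below in the order of the library numbers 1, 2 and 3. Itpkb RNA stood at 10.2, 13.98 and 18.2 normalized CPM with Itpkb-/- against 22.1, 23.6 and 25.1 with WT, and these ranges did not overlap. Its log2 difference of -0.73 (SE 0.24) did not pass limma's test (adjusted p = 0.172) and passed it with same-numbered libraries as a replicate block (0.0541). The allele is a chemically induced mutation, so residual RNA says nothing on the protein. All 10 markers of LT-HSC fixed for the check were detected in every library, and 5 of them were lower in Itpkb-/- by limma, 7 with the block. Of all tested genes 3.24% were lower by limma and 8.97% with the block. Itpkb-/- library 2 held the lowest value of 9 of the 10 markers. In bulk samples fewer cells of a type and less RNA per cell cannot be told apart.

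The proteasome has a barrel-shaped 20S core and a 19S regulatory particle that caps it. In the core, rings of alpha subunits form the gate on the outside and rings of beta subunits hold the proteolytic sites on the inside. The 19S particle contains a ring of ATPases, which unfold substrates and thread them into the core, and non-ATPase subunits, which bind ubiquitin chains, remove them and hold the particle together. The core and the particle are built from fixed numbers of each subunit, and the transcription factor Nfe2l1 is known to raise subunit genes jointly when proteasome activity falls short. Haematopoietic stem cells are known for low protein synthesis and for sensitivity to misfolded protein.

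The promoters of members that are measured together can be read beside their values. RefSeq promoter windows on GRCm38.p6, from 250 bases before to 50 after a start of the gene, were found for 25 of the 31 members. A gene with several starts had several windows and was counted as having a motif if any window held it. The shares below are therefore shares of genes. The core of the antioxidant response element, TGACNNNGC, through which Nfe2l1 and Nfe2l2 act, was searched on both strands and was present in 4 of the 25 (16%), in 17.3% of the promoters of tested genes and in 13.99% of all promoters. It, or its reverse complement, is shown in capitals, 5′ to 3′ on the gene's strand, for Psmb5 and Psmb6, which carry catalytic sites, and for Psmc6 and Psmd12, which lie low in the ranking of differences. The coordinates of the stretches are chr14:54618023-54618072 (minus strand), chr11:70525318-70525356, chr14:45329574-45329635 and chr11:107479278-107479319 (plus strand), and the motif lies 47, 9, 227 and 247 bases before the start.
Psmb5: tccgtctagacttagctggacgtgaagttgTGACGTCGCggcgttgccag
Psmb6: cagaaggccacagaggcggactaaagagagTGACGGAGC
Psmc6: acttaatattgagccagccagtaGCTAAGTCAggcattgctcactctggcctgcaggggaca
Psmd12: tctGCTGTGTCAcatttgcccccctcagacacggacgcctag

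The Ets-type motif CCGGAAG, also searched on both strands, was present in 10 of the 25 member promoters (40%), in 20.6% of those of tested genes and in 9.93% of all. By role it was found in 1 of 7 alpha-ring, 0 of 4 beta-ring, 3 of 5 ATPase and 6 of 9 non-ATPase promoters. The alpha-ring matches, in Psma6, lay in the window of a start within the gene (chr12:55398575-55398874), which begins at 55384222. Among the promoters of the COP9 signalosome, a complex related to the lid of the 19S particle, it was found in 5 of 8. The motif or its reverse complement is shown in capitals, as examples from the 19S genes, for Psmc6 (chr14:45329694-45329760, plus strand), Psmd2 (chr16:20651596-20651651, plus strand), Psmd4 (chr3:95042703-95042769, minus strand) and Psmd11 (chr11:80428574-80428614, plus strand), 100, 26, 125 and 11 bases before the start. Each match is a description of the letters in these windows and no measured site.
Psmc6: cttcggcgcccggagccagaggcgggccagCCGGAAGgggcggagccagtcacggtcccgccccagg
Psmd2: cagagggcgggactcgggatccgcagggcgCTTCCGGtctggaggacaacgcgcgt
Psmd4: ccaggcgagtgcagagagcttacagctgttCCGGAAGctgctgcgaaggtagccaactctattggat
Psmd11: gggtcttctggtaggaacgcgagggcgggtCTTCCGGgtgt

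Summed over the 31 members, the values were 4205, 4772 and 4336 with Itpkb-/- against 3564, 3919.8 and 3492 with WT. All 3 Itpkb-/- sums lay above all 3 WT sums, and the means of 4437 ± 297 and 3659 ± 229 (SD, n = 3 each) gave a ratio of 1.21. The log2 difference on log2(value + 1), Itpkb-/- minus WT, was modest per gene, with a median of 0.26 over the members, beside 0.0018 over the 12008 genes tested, and ranged from 0.017 (Psmd12) to 0.51 (Psma3). It was positive for each of the 31, and for 50.2% of all tested genes. Only Psma3 passed limma's test at an adjusted p of at most 0.15, which is the limit in the series design text. At this limit 5.5% of tested genes were called, 2.27% as higher and 3.24% as lower. At an unadjusted p under 0.05 the members counted 10, all higher, where 15.5% of tested genes passed and 7.13% were higher. For 12 members every Itpkb-/- value lay above every WT value, and for none below, where 10.03% of tested genes lay above and 11.3% below, 21.3% in either direction. With the replicate block 11 members passed, all higher, where 18.1% of tested genes passed, 9.15% as higher and 8.97% as lower. edgeR called 2 members as higher, where it called 6.02% of its tested genes, 2.45% as higher and 3.58% as lower.

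By library, Itpkb-/- library 2 held the highest value of 19 members, library 1 of 7 and library 3 of 3, and WT library 2 held that of the other 2. The lowest value fell in WT library 3 for 15 members, in WT library 1 for 8, and in WT library 2 and Itpkb-/- library 1 for 4 each. WT library 3 also held the lowest value of 8 of 10 granulocyte markers. Within same-numbered libraries the Itpkb-/- value was the higher one for 25, 28 and 29 of the 31 members, and in all 3 pairs for 22. Shares of all tested genes were not computed for these highest, lowest and pair counts, so they cannot be compared with all genes. Without Itpkb-/- library 2 the members' median was 0.23. The 12 members with separate ranges stay separate by construction when a library is removed, and without this library no further member joined them, where 13.4% of tested genes were separate and higher. The same library held the highest value of 9 of 10 granulocyte markers and 6 of 7 cell-cycle markers, and the lowest of 9 of 10 LT-HSC markers. The plot of member values by library shows this order gene by gene.

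**Figure D1:**
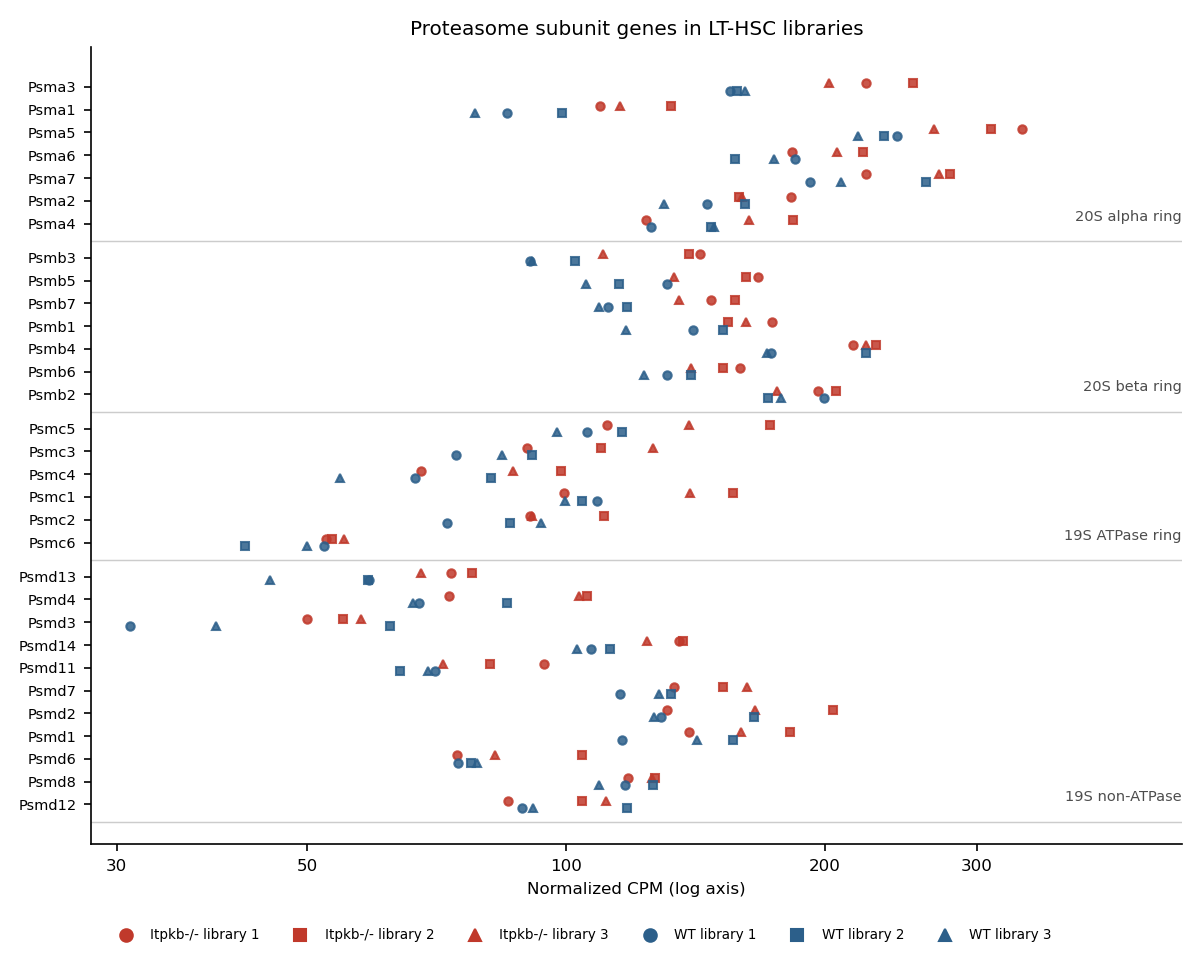
Normalized CPM (log axis) of each of the 31 members in the 6 libraries, with Itpkb-/- in red, WT in blue, and circles, squares and triangles for libraries 1, 2 and 3. Psma3, Psmb7 and Psmd13 are among the 12 members whose red points all lie above the blue ones, while Psmb2, Psmd8 and Psmd12 overlap.

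The alpha ring lines the mouth of the core, and its 7 genes had log2 differences of 0.15 to 0.51 with a median of 0.24. Psma3 rose, at 223, 253 and 202 normalized CPM with Itpkb-/- against 155, 158 and 161 with WT. The ranges did not overlap, and the lowest Itpkb-/- value lay well above WT values that sat close together. Mean levels were 226 ± 25.6 and 158 ± 3.12 (SD, n = 3 each). The log2 difference was 0.51 (SE 0.13, 95% interval 0.23 to 0.79, limma adjusted p = 0.0822). The call was lost when Itpkb-/- library 2 or any WT library was left out (limma adjusted p 0.208 to 0.289) and with the granulocyte marker mean as a covariate (0.324), and limma's adjusted p ran from 0.00792 to 0.324 over all alternatives. Psma3 lies at chr12:70974621-70996347 (plus strand, mm10).

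Psma1, another alpha subunit, had 109.6, 132 and 116 normalized CPM with Itpkb-/- against 85.3, 98.9 and 78.4 with WT. These ranges did not overlap either, with a log2 difference of 0.44 (SE 0.14) that missed the limit in limma (adjusted p = 0.165) and passed with the replicate block (0.0266). Psma5 stood next at 0.39, with means of 306 ± 35.6 and 232 ± 12.04 (SD), no overlap, and limma adjusted p of 0.163, or 0.0178 with the block. At the other end of the ring, Psma4 had 124, 184 and 163 normalized CPM with Itpkb-/- against 125, 147 and 148 with WT. Its highest and its lowest value both came from Itpkb-/- libraries, and the log2 difference of 0.15 (95% interval -0.21 to 0.50) was within that spread. Psma2 gave 0.20 from 183, 159 and 160.2 with Itpkb-/- against 146, 161 and 129.8 with WT, and here Itpkb-/- library 2 was below WT library 2. Psma6 (0.24) and Psma7 (0.23) overlapped as well. WT Psma7 values ran from 192 to 262, a wider spread than the difference of the means.

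In the beta ring, 4 of the 7 genes had separate ranges with Itpkb-/- higher, beside 10.03% of tested genes. The median log2 difference was 0.26. Psmb3, a beta subunit without a proteolytic site, had the largest difference, with 143, 139 and 110.2 normalized CPM with Itpkb-/- against 90.8, 102 and 91.2 with WT. The Itpkb-/- values lay above all WT values, by the least in library 3, and the log2 difference of 0.45 (SE 0.14) narrowly missed the limit in limma (adjusted p = 0.157) and passed with the block (0.0262). The 3 genes of the proteolytic sites had log2 differences of 0.39, 0.37 and 0.19. Psmb5, which carries the chymotrypsin-like site, had 167, 162 and 134 normalized CPM with Itpkb-/- against 131, 115 and 105 with WT. All its Itpkb-/- values were above the WT values, with a log2 difference of 0.39 (SE 0.14, limma adjusted p = 0.213, 0.0324 with the block). Psmb7, with the trypsin-like site, had 147, 157 and 135 normalized CPM with Itpkb-/- against 112, 118 and 109 with WT. It was separate too, at 0.37 (SE 0.13, limma adjusted p = 0.182, 0.0423 with the block).

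Psmb6, with the caspase-like site, had 159, 152 and 139.6 normalized CPM with Itpkb-/- against 131, 139.7 and 123 with WT, and the lowest Itpkb-/- value was just under the highest WT value. Its log2 difference was 0.19 (95% interval -0.082 to 0.47, limma adjusted p = 0.507). Psmb2 had the smallest difference of the ring, 0.074 (95% interval -0.20 to 0.35), from 196, 206 and 176 with Itpkb-/- against 199, 172 and 178 with WT. Its values mixed across the genotypes. The non-catalytic Psmb1 (0.26) was the fourth gene with separate ranges, and Psmb4 (0.25) overlapped, with WT library 2 (223) above Itpkb-/- library 1 (215).

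Among the 6 ATPases, which turn nucleotide hydrolysis into unfolding and translocation, log2 differences ran from 0.16 to 0.38 with a median of 0.31, and none passed limma's test. Psmc5 had 112, 173 and 139 normalized CPM with Itpkb-/- against 106, 116 and 97.5 with WT. Itpkb-/- library 2 was far above the rest and library 1 lay inside the WT range, and the log2 difference of 0.38 had a SE of 0.17 (limma adjusted p = 0.299) and passed with the block (0.062) and without Itpkb-/- library 1 (0.108, range over alternatives 0.062 to 0.681). Psmc3, whose tail docks in the alpha ring and helps to open the gate, had 89.96, 109.9 and 126 normalized CPM with Itpkb-/- against 74.4, 91.2 and 84.1 with WT, a difference of 0.37 (limma adjusted p = 0.292, 0.0695 with the block) with library 1 again within the WT range. Psmc1, which has a gate-opening tail of the same kind, stood at 0.31, from 99.3, 156 and 139 with Itpkb-/- against 109, 104 and 99.8 with WT. Its lowest value was that of Itpkb-/- library 1, and it passed limma's test only without that library (adjusted p = 0.104, range over alternatives 0.104 to 0.785). Psmc6, the smallest difference at 0.16, was the 1 ATPase gene of 6 with separate ranges, where 10.03% of tested genes were separate and higher. Its values were 52.5, 53.5 and 55.2 normalized CPM with Itpkb-/- against 52.2, 42.3 and 49.9 with WT, and the gap between the genotypes was smaller than 3 reads in any library. Psmc2 gave 0.21 from 90.8, 111 and 91.2 with Itpkb-/- against 72.6, 86.1 and 93.5 with WT, with Itpkb-/- libraries 1 and 3 within the WT range. Psmc4, the sixth, gave 0.32 with overlap.

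The 11 non-ATPase genes had a median log2 difference of 0.25. Separate ranges with Itpkb-/- higher were found for 4, beside 10.03% of tested genes, and 3 passed as higher with the block, beside 9.15%. Psmd13, a structural subunit of the lid, had 73.4, 77.7 and 67.8 normalized CPM with Itpkb-/- against 58.9, 58.7 and 45.2 with WT. The ranges were apart, and the log2 difference was 0.43 (SE 0.16, limma adjusted p = 0.222, 0.0596 with the block). Psmd4, a receptor for ubiquitin chains, had 72.97, 106 and 103 normalized CPM with Itpkb-/- against 67.4, 85.3 and 66.3 with WT. Itpkb-/- library 1 lay within the WT range, and the difference was 0.35 (limma adjusted p = 0.38, 0.116 with the block). Psmd14, the deubiquitinase that strips chains from substrates as they enter, gave 0.29 from 135, 137 and 124 with Itpkb-/- against 107, 113 and 103 with WT. Those ranges were separate, and limma's adjusted p of 0.288 became 0.107 with the block. Psmd7, the inactive partner of Psmd14, and Psmd11, a lid subunit that bridges to the core, were also separate, at 0.25 and 0.27.

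The large scaffold subunits Psmd2 and Psmd1 gave 0.24 and 0.21 with overlapping libraries. Psmd3, a lid subunit, had a difference of 0.35, but its WT values spread from 31.1 to 62.3, beyond both ends of the Itpkb-/- range of 49.9 to 57.7. The lid subunits Psmd8 and Psmd12 had the smallest values. Psmd8 gave 0.073 (95% interval -0.20 to 0.35) from 118, 127 and 126 with Itpkb-/- against 117, 126 and 109 with WT. Psmd12 gave 0.017 (95% interval -0.34 to 0.37) from 85.6, 104 and 111 with Itpkb-/- against 88.8, 118 and 91.6 with WT. In both genes the genotypes overlapped, and the sign of the Psmd12 difference turned with total-count scaling (-0.019). Psmd6, the last of the lid genes, stood at 0.16 with overlap.

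**Figure D2:**
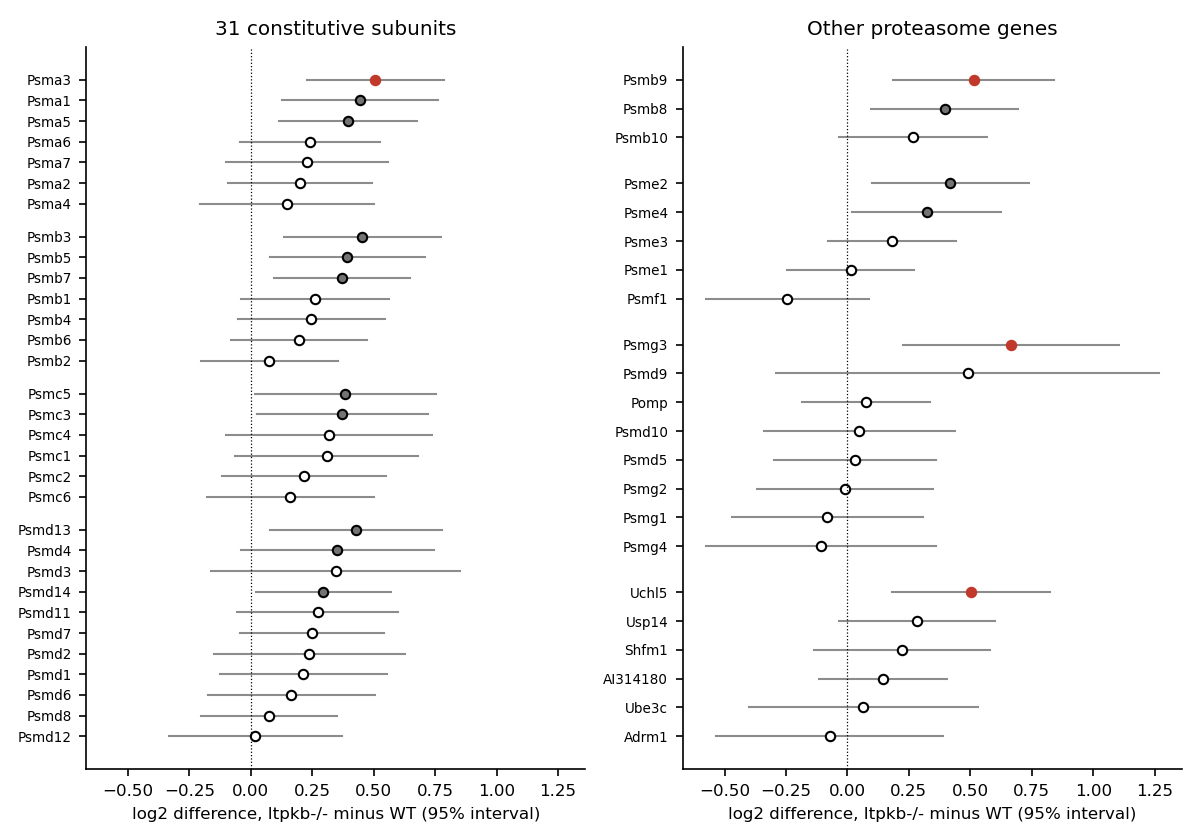
Log2 difference, Itpkb-/- minus WT, with its 95% interval for the 31 members (left) and for immunoproteasome, activator, assembly and attached genes (right). Red filled points passed limma's test, grey filled points passed only with the replicate block and open points passed neither. All 31 members lie to the right of 0, from 0.017 to 0.51, and 1 of them is red.

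Taken by assembly, the 14 genes of the 20S core summed to 2586, 2739.7 and 2466 with Itpkb-/- against 2108, 2240.1 and 2014 with WT, with ratios of 1.23, 1.22 and 1.22 in the same-numbered pairs. All 3 Itpkb-/- sums were above the WT sums, and the pair ratios nearly coincided. The 17 genes of the 19S particle summed to 1619, 2032 and 1869.9 with Itpkb-/- against 1456, 1679.7 and 1478 with WT, with pair ratios of 1.11, 1.21 and 1.26. Here Itpkb-/- library 1 was below WT library 2, so that the sums overlapped. The group means gave ratios of 1.22 for the core and 1.20 for the particle, and the difference between the assemblies was not tested. Within the particle, the sum of the 6 ATPases in Itpkb-/- library 1 (512) lay within the WT range of 479 to 522.

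Levels of different genes were compared per kilobase of the longest transcript. In WT they ran from 213 normalized CPM per kilobase for Psmb2 to 20.6 for Psmd3, a 10.4-fold range. In Itpkb-/- they ran from 247 for Psma5 to 24.04 for Psmc6, a 10.3-fold range. The medians of the core rings lay above those of the particle, although single genes mixed: the WT median level per kilobase was 120.4 for the alpha ring and 130.2 for the beta ring, and 47.03 for the ATPases and 47.3 for the non-ATPase genes. In Itpkb-/- the same medians were 135, 171, 59.2 and 53.6. Core genes Psma2 (50.01), Psma3 (55.6) and Psmb1 (69.4) lay below the ATPase gene Psmc5 (80.9). Per kilobase of coding sequence the WT order of the core and particle medians was the same, with 207 and 184 against 60.2 and 64.2. The isoforms actually present were not measured, and a longer transcript model lowers a gene's level on this scale.

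**Figure D3:**
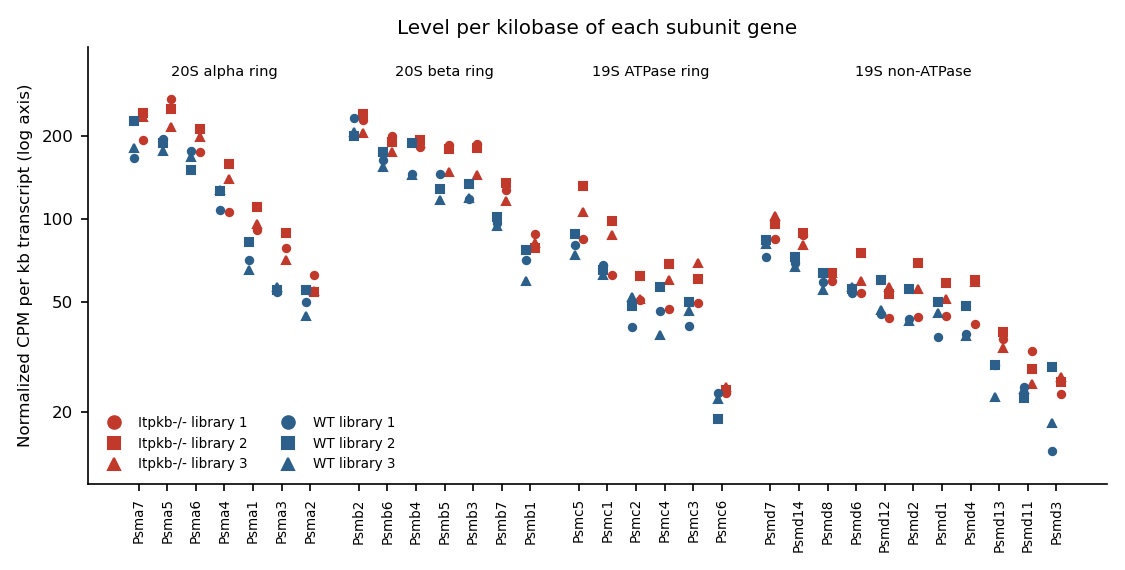
Normalized CPM per kilobase of the longest transcript (log axis) for each subunit gene by role, in both genotypes. Alpha- and beta-ring genes lie above most ATPase and non-ATPase genes, with WT medians of 120.4, 130.2, 47.03 and 47.3.

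The immunoproteasome subunits Psmb9, Psmb10 and Psmb8 take the places of Psmb6, Psmb7 and Psmb5 in cores made after interferon exposure and, without it, in many blood cells. Their WT median level per kilobase of transcript, 122 normalized CPM, was near that of the alpha and beta rings. All 3 had separate ranges with higher Itpkb-/- values, beside 10.03% of tested genes. Psmb9 rose, at 241, 247 and 213 normalized CPM with Itpkb-/- against 173, 188 and 134 with WT, a log2 difference of 0.51 (SE 0.15, limma adjusted p = 0.125, 0.00595 with the block, range over alternatives 0.00595 to 0.426). Among the leave-one-out fits that call held only without Itpkb-/- library 3. Exons of Psmb9 overlap those of Tap1 on the opposite strand, and 12.5% of its stretches of 50 bases also occur in Tap1 transcripts. The reads carry no strand, so reads of Tap1 in the Psmb9 values cannot be separated. Psmb8 gave 0.40 (limma adjusted p = 0.187, 0.0247 with the block) and Psmb10 0.27 (limma adjusted p = 0.387).

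The ratio of each inducible subunit to its constitutive partner was compared between the genotypes on values not divided by length, so its size does not give which partner is the more abundant. Psmb9 to Psmb6 was 1.52, 1.62 and 1.53 with Itpkb-/- against 1.32, 1.34 and 1.09 with WT, so that all Itpkb-/- ratios were the higher ones. The exact permutation test gave p = 0.1, the smallest that 3 against 3 libraries allow (two-sided, 0.3 after adjustment over the 3 ratios). Psmb10 to Psmb7 averaged 1.00 ± 0.112 and 1.08 ± 0.0555 (SD, n = 3 each, exact permutation p = 0.4). Per kilobase of the longest transcript the Psmb9 to Psmb6 means were 0.918 and 0.738, and those of Psmb8 to Psmb5 0.991 and 0.983. Per kilobase of coding sequence they were 1.69 and 1.36, and 1.72 and 1.70. Which partner appeared the more abundant thus turned with the length used. The p-values were the same on each scale, since length cancels between genotypes. Undivided, Psmb8 to Psmb5 averaged 1.79 ± 0.268 and 1.78 ± 0.0534 (exact permutation p = 0.9), and the Psmb10 and Psmb8 ratios overlapped between the genotypes. Psma8, the testis paralog of Psma7, was low, at 6.97, 3.26 and 8.13 normalized CPM with Itpkb-/- against 13.2, 12.4 and 9.31 with WT, with a log2 difference of -0.89 (limma adjusted p = 0.23, 0.105 with the block). Psmb11, the thymus paralog, had 0 reads in every library.

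Of the 5 activator and inhibitor genes none passed limma's test, and 2 passed with the block as higher, beside 9.15% of tested genes. Psme2, a subunit of the interferon-inducible cap, had 127, 168 and 138 normalized CPM with Itpkb-/- against 118, 103 and 100.3 with WT, a difference of 0.42 (limma adjusted p = 0.191, 0.0482 with the block) with separate ranges. Psme4, the other of these genes, encodes a single-chain cap and gave 0.32 (limma adjusted p = 0.292, 0.0933 with the block). Psme1, the partner of Psme2 in the same cap, gave 0.012 (95% interval -0.24 to 0.27) with overlapping libraries, and the difference between the 2 genes was not tested. Psme3, the nuclear cap, gave 0.18 and the inhibitor gene Psmf1 -0.24.

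Of the 8 assembly genes, whose products leave the mature particle, 1 rose. Psmg3, a chaperone of the alpha ring, had 27.7, 31.5 and 36.2 normalized CPM with Itpkb-/- against 18.9, 22.4 and 17.7 with WT, a log2 difference of 0.66 (SE 0.20, limma adjusted p = 0.137, range over alternatives 0.0493 to 0.411), and among the leave-one-out fits the call held only without Itpkb-/- library 1. The median of the 8 was 0.040. Psmd9, a chaperone of the ATPase ring with the next smallest p, had 8.93, 22.1 and 15.9 normalized CPM with Itpkb-/- against 14.9, 9.86 and 7.07 with WT, a difference of 0.49 (95% interval -0.29 to 1.27, limma adjusted p = 0.564) with overlap. Pomp, the chaperone of the beta ring, had 191, 203 and 195 normalized CPM with Itpkb-/- against 174, 196 and 190.4 with WT, a difference of 0.074 (95% interval -0.19 to 0.33). Of the 6 other 19S parts and attached enzymes, with a median of 0.18, 1 rose. Uchl5, a deubiquitinase bound to the 19S particle, had 105, 130.1 and 115 normalized CPM with Itpkb-/- against 72.6, 82.6 and 90.5 with WT, a log2 difference of 0.50 (SE 0.15, limma adjusted p = 0.125, range over alternatives 0.0168 to 0.364), and its call too held among these fits only without Itpkb-/- library 1. Usp14, the other deubiquitinase of the particle, gave 0.28 (limma adjusted p = 0.38).

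Upstream of the subunits, none of the 15 genes for transcription and its processing passed limma's test, where the median was 0.12. With the block 2 passed as higher and 1 as lower, beside 9.15% and 8.97% of tested genes. Nfe2l1 had 106, 116 and 125 normalized CPM with Itpkb-/- against 109.9, 126 and 109 with WT, a difference of 0.013 (95% interval -0.28 to 0.31). Nfe2l2, the related factor of the oxidative stress response, gave -0.10 (95% interval -0.37 to 0.17), also with overlap. Nfe2l1 is controlled mainly by the stability and cleavage of its protein, which RNA does not measure. The smallest p in the list belonged to Stat3, a transcription factor downstream of cytokine receptors, with 257, 281 and 287 normalized CPM with Itpkb-/- against 203, 232 and 212 with WT, a difference of 0.35 (limma adjusted p = 0.184, 0.0312 with the block). Nfya, a subunit of the factor that binds the CCAAT box, was next at -0.30 (limma adjusted p = 0.241, 0.0701 with the block). Foxm1, a factor of the cell-cycle programme, was the other gene that passed as higher with the block, at 0.61 (limma adjusted p = 0.275, 0.0423 with the block). Of the 11 ubiquitin and delivery genes, with a median of 0.016, 1 fell. Ubqln2, a shuttle that brings ubiquitylated proteins to the proteasome, had 64.5, 44.4 and 58.3 normalized CPM with Itpkb-/- against 102, 73.5 and 80.8 with WT, a log2 difference of -0.61 (SE 0.18, limma adjusted p = 0.137, range over alternatives 0.00992 to 0.425), and the call held among the leave-one-out fits only without Itpkb-/- library 1. The second smallest p of that list was for Ubqln4, also a shuttle, at -0.26 (limma adjusted p = 0.399).

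Other protein complexes were read in the same fit, the ribosomal protein genes at far higher values than the members. The 8 genes of the cytosolic chaperonin had a median log2 difference of 0.19, with 7 positive, and the 9 of the COP9 signalosome 0.074, with 7 positive. Chaperonin sums of 2780, 3091 and 2761 with Itpkb-/- all lay above the 2584, 2444.5 and 2352 with WT, a ratio of means of 1.17. The 77 ribosomal protein genes had a median of -0.081, with 19 positive. limma called 0 genes in each of the 3 complexes, edgeR called 0, and 2 chaperonin genes, 0 COP9 genes and 0 ribosomal protein genes had an unadjusted p under 0.05. With the block, 3 of the 8 chaperonin genes passed as higher, beside 9.15% of tested genes. As lower, 8 of the 77 ribosomal protein genes passed, beside 8.97% of tested genes. In 5 of the 8 chaperonin genes (62.5%) all Itpkb-/- values lay above all WT values. This held for 12 of the 31 members (38.7%), 0 of the COP9 and ribosomal protein genes and 10.03% of all tested genes. The differences between the complexes were not tested.

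Granulocyte, monocyte and macrophage, erythroid and cell-cycle markers had their highest sums in Itpkb-/- library 2, and megakaryocyte markers in Itpkb-/- library 3. The 10 granulocyte markers summed to 6160.2, 18208 and 904 with Itpkb-/- against 3549, 2589.6 and 688 with WT, and 9 of the 10 were highest in Itpkb-/- library 2. None of them was called by limma, and all 10 passed as higher with the block. The 7 cell-cycle markers summed to 1338, 2589 and 2109.5 with Itpkb-/- against 994, 1578 and 1525 with WT, with 2 called higher, 6 with the block, and a median log2 difference of 0.58. Within each genotype the 19S sums stood in the same order of libraries as the cell-cycle sums (2, 3, 1), whereas the 20S sums were ordered 2, 1, 3. In Itpkb-/- alone the granulocyte sums had the order of the 20S sums. In WT alone the read depths had the order of the 19S sums. These orders of 3 libraries were read after seeing the data, and a link between them was not tested. With the granulocyte marker mean as a covariate the members' median was 0.23, all 31 stayed positive and none passed. Monocyte and macrophage markers summed to 83.4, 372 and 14.4 with Itpkb-/- against 48.5, 54.1 and 13.4 with WT, erythroid markers to 417, 546 and 98.2 with Itpkb-/- against 328, 227 and 129.9 with WT and megakaryocyte markers to 740.1, 615 and 1326 with Itpkb-/- against 476, 613 and 636 with WT. Among these 3 lists Epor and Itga2b were called higher. With the block 1 monocyte and macrophage marker, 3 erythroid and 2 megakaryocyte markers passed as higher and 2 erythroid markers as lower. Among all tested genes the block gave 9.15% as higher and 8.97% as lower. B cell markers summed to 29.0 to 37.1 with Pax5 at 0 in every library, T cell markers to 2.69 to 9.31 with Cd3g and Cd8a at 0, and stroma markers to 7.34 to 12.9 with Lepr at 0. The part of the granulocyte markers in the members' differences was not tested beyond this covariate fit. That of the cell-cycle markers was not tested in any fit.

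**Figure D4:**
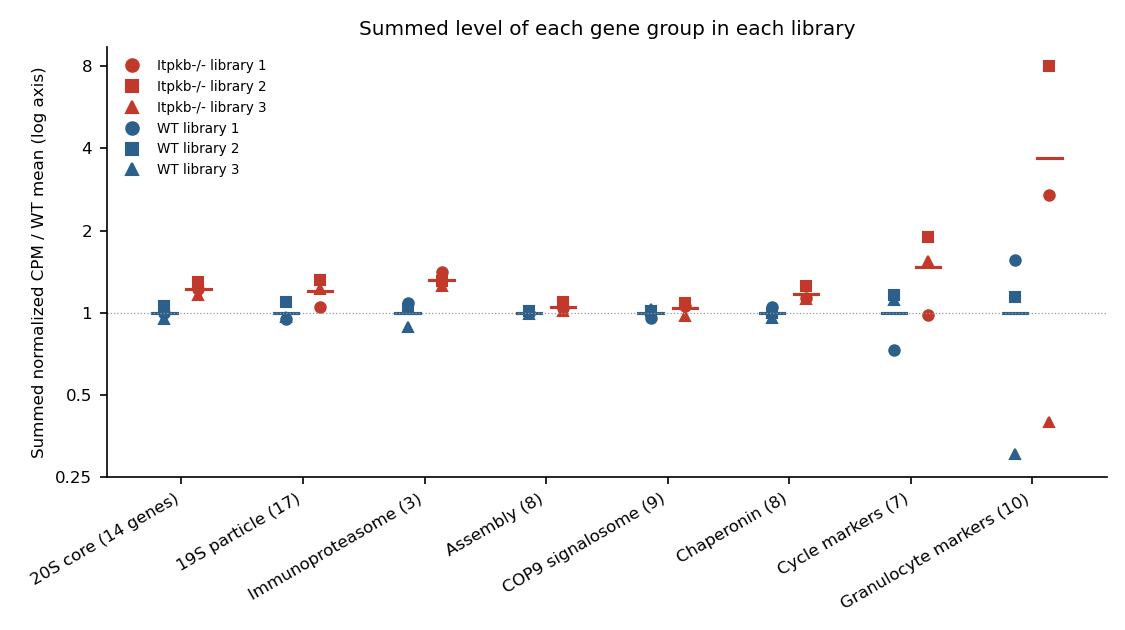
Summed normalized CPM of each gene group divided by its WT mean (log axis), for the 6 libraries, with bars at the genotype means. The 20S core has a ratio of means of 1.22 and the 19S particle of 1.20, and the core's libraries do not overlap between the genotypes. Those of the immunoproteasome (ratio 1.32), the chaperonin (1.17) and the assembly genes (1.05) do not overlap either.

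Proteasome genes have many processed copies in the genome, and how the authors assigned reads that fit several places was not stated in any source used here. Of the 31 members, 17 had at least one stretch of 50 bases in their longest transcript that also occurs in a transcript of another annotated gene, and for 10 more than 10% of the stretches did. The share was 22.02% for Psma3, 55.4% for Psma5, 55.8% for Psmb3 and 57.1% for Psmb5, so the values of these members are uncertain by what such copies took or gave. Exons of 7 members overlap those of a gene on the opposite strand, which this library type cannot separate. The 13 members free of both had a median log2 difference of 0.24, from 0.017 to 0.44 (Psma1). Of these 13, 2 had separate ranges, limma called 0, and 3 passed with the block. The other 18 had a median of 0.30, 10 had separate ranges, limma called 1, and 8 passed with the block. Of all tested genes, 10.03% were separate and higher, 2.27% were called higher by limma and 9.15% with the block. Summed, the 13 gave 1682, 2043 and 1895 with Itpkb-/- against 1543, 1735 and 1529.5 with WT, with Itpkb-/- library 1 below WT library 2. The difference between the 13 and the 18 was not tested.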

How the data were processed

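Libraries were made with the NuGEN Ovation RNA-Seq V2 system, whose reads carry no strand, from an estimated 1 to 5 ng of RNA, per the labels' protocols. The submitters' processing notes list CASAVA 1.8.2, cutadapt, TopHat2 2.0.8b, Partek and edgeR, with build mm10. The series design text names another TopHat version. Which version was used for the table was not given in any source. The authors deposited a signal, gene counts scaled to CPM and divided by one library factor (called normalized CPM). Of the values, 100% lay within 0.01 read of whole reads, which recovered the depths.

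The test was limma 3.58.1 (R 4.3.3) on log2(value + 1) with its trend option, for genes with at least 1 in at least 3 libraries (12008 of 23998), with Benjamini-Hochberg adjustment over all of them. The limit for a call was an adjusted p of 0.15. Fold changes on this scale understate low genes. edgeR 4.0.16 (11486 genes) and DESeq2 1.42.0 on the recovered reads were alternatives, as were no filter, a filter on mean log2 value above 4, a pseudocount of 0.5, total-count scaling, a granulocyte covariate and leaving out each library. The test was first tried on simulated counts. P-values measure the spread between pools. Same-numbered libraries deviated together from their genotype means (correlations across genes of 0.296, 0.268 and 0.284). Libraries of different numbers gave -0.227 to -0.0475. By this criterion the title numbers, whose meaning no label gives, were taken as pairs, and blocked values are printed where they altered a call. The pairing was thus chosen from the same data that were tested, and every p-value with the block rests on it.

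The members and lists were chosen with earlier results of these data known. All members were named, with every library's value for called members and for the 2 largest and 2 smallest differences of each role. Psma5, Psma7, Psmb4, Psmb7, Psmc1, Psmd3, Psmd14 and Foxm1 were also given values after these were seen. Of the other proteasome lists, called genes, the 2 smallest p and fixed key genes were named. Positions are those of GENCODE M21, and promoter sequences those of RefSeq (GRCm38.p6).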

Additional observations from a re-analysis of the deposited data

How the results depend on the processing

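The members' median log2 difference stayed positive under every alternative run, from 0.22 (total-count scaling, which moved the median of all genes to -0.03) to 0.34 (without WT replicate 2). The count of members that passed moved more. It was 1 in limma, 2 in edgeR, 4 in DESeq2, 11 with the replicate block, 0 with the granulocyte covariate and 0 at an adjusted p of at most 0.05. Leaving out 1 library gave 0 to 6: 6 without Itpkb-/- replicate 1, 3 without Itpkb-/- replicate 3, and 0 without Itpkb-/- replicate 2 or any WT replicate. For the other proteasome lists the count was 4 in limma, 0 with no filter, 2 with total-count scaling, 11 with the replicate block (8 higher, 3 lower), 0 with the granulocyte covariate, 0 at 0.05, and 0 to 5 with 1 library left out (5 without Itpkb-/- replicate 1). For the comparison complexes it was 0 in limma, 2 in DESeq2, 11 with the replicate block (3 higher, 8 lower) and 0 to 5 with 1 library left out (5 without Itpkb-/- replicate 1). The 12 members with separate ranges became 10 with total-count scaling and 12 to 23 with 1 library left out (23 without Itpkb-/- replicate 1 or WT replicate 2). Leaving 1 out can only raise this count, and the alternative was chosen after seeing the data. Shares over all tested genes are given above for limma, edgeR and the replicate block, and for separate ranges also without Itpkb-/- replicate 2. They were not counted for the other settings, so those counts cannot be compared with all genes. The highest over the lowest WT level was 10.4 per transcript length and 11.5 per coding length. With total-count scaling the differences of Psmd12, Psme1 and Nfe2l1 were -0.019, -0.024 and -0.023. Leaving out 1 library took Psmd12 from -0.060 to 0.14, Psme1 from -0.044 to 0.051 and Nfe2l1 from -0.043 to 0.079. The cause of these changes was not tested. All members lay far above 3 reads in each library.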

Other observations

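Other motifs known from promoters of widely expressed genes were counted in the same 25 member promoters, on both strands. The CCAAT box was present in 10 (40%), beside 43.2% of the promoters of tested genes, and 5 of these 10 were among the 7 alpha-ring genes. The GC box GGGCGG was present in 15 (60%), beside 69.3%, and the YY1-type motif AAGATGGC in 3 (12%), beside 5.50%. The nuclear respiratory factor motif GCATGCGC was present in 2 (8%), beside 6.27%, and the E-box CACGTG in 1 (4%), beside 11.97%. The chaperonin promoters held the antioxidant response element core in 3 of 7 and the immunoproteasome promoters in 0 of 3.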
